A study of Homo sapiens with 6 samples.

Results

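The noncoding transcripts that carry small RNAs inside them were compared between RKO cells labelled GSK3B wild-type and RKO cells labelled GSK3B knockout. Members were chosen by a rule on the symbol that uses no measured value, though earlier results of these data were known when it was proposed. The rule takes SNHG followed by a number, GAS5, EPB41L4A-AS1 and ZFAS1, which are hosts of small nucleolar RNAs (snoRNAs), and every symbol that begins with MIR and ends with HG, which are hosts of microRNAs, except MIR210HG. This gave 92 of the 28278 gene symbols in the tables, 31 snoRNA hosts and 61 microRNA hosts. RKO is an established human colon carcinoma line. There were 3 libraries of RKO cells with wild-type GSK3B and 3 of RKO cells labelled as GSK3B knockouts, both made from polyadenylated RNA with no treatment or time point in the labels. The sources used here do not state the method of knockout, if 1 clone or a pool was used, or if a group's libraries came from separate cultures. The p-values thus cover the spread between these libraries alone, which may be technical.

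Host genes of this kind are transcribed and spliced like messenger RNA genes, and the spliced transcript often has no long reading frame. The snoRNAs sit in the introns. They are trimmed out of the excised introns and bound by core proteins, and most then guide chemical modification of ribosomal RNA: C/D box snoRNAs direct methylation of ribose, and H/ACA box snoRNAs direct the change of uridine to pseudouridine. Many snoRNA hosts start with a run of pyrimidines, a feature they share with ribosomal protein messenger RNAs, and several of the spliced hosts, GAS5 among them, are degraded by nonsense-mediated decay. Hairpins of microRNAs are cut from their hosts by DROSHA in the nucleus and by DICER1 in the cytoplasm, and the mature strand pairs with target messages mainly through its seed, bases 2 to 8. The libraries measured the host RNAs and not the mature small RNAs.

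The mature strands carried by the microRNA hosts on which the results turn are shown here, since the host is only a carrier for them. They are RefSeq sequences (GRCh38.p14), written 5′ to 3′ with the seed in capitals. MIR100HG carries a let-7 and a miR-125 member beside miR-100, MIR22HG carries miR-22, and MIR17HG is the primary transcript of the miR-17-92 cluster.
miR-100-5p (MIR100HG): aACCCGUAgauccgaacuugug
let-7a-5p (MIR100HG): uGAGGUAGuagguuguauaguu
miR-125b-5p (MIR100HG): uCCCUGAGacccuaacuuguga
miR-22-3p (MIR22HG): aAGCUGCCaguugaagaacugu
miR-17-5p (MIR17HG): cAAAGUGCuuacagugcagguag
miR-20a-5p (MIR17HG): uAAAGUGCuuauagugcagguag
miR-18a-5p (MIR17HG): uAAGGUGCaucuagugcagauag
miR-19a-3p (MIR17HG): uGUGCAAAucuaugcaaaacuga
miR-19b-3p (MIR17HG): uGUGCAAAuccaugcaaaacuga
miR-92a-3p (MIR17HG): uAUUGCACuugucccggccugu
miR-4435 (MIR4435-2HG): aUGGCCAGagcucacacagagg
Within the MIR17HG cluster miR-17-5p and miR-20a-5p shared the seed AAAGUGC, and miR-19a-3p and miR-19b-3p shared GUGCAAA. The 3 strands from MIR100HG had 3 different seeds. The miR-4435 strand was the same at 2 places on chromosome 2, chr2:111321061-111321082 on the minus strand within MIR4435-2HG and chr2:87629764-87629785 on the plus strand at the CYTOR locus.

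Total counts ran from 32379369 to 33558362 per library. The targeted gene was read first. GSK3B was at 91.4 to 99.0 CPM (counts relative to the library total, scaled by TMM) in the wild-type libraries and at 46.0 to 47.5 CPM in the knockout libraries, a log2 fold change of -1.04 (SE 0.050, adjusted p = 1.881e-12, edgeR's quasi-likelihood test with Benjamini-Hochberg adjustment). The knockout libraries thus kept 48.8% of the wild-type level, and gene-level counts do not show whether the remaining transcript is intact. The exact two-sided permutation test gave p = 0.1, the smallest that 3 against 3 libraries allow. Of the colon epithelial markers KRT18 and KRT8, keratins of simple epithelia, stood at 69.9 and 30.1 CPM in wild-type libraries and CDX2, an intestinal transcription factor, at 18.6 CPM. VIL1, a brush border protein, stood at 17.2 CPM, while KRT19 and KRT20, further epithelial keratins, were near 0 at 0.0809 and 0.0304 CPM and were not tested. EPCAM fell from 3.43 ± 0.952 to 1.07 ± 0.0394 CPM (SD, n = 3 each; adjusted p = 2.59e-05), and CDH1 was listed at 0, as were some genes that dividing cells use, so a 0 was not read as absence. The marker lists of leukocytes, endothelium, fibroblasts and hepatocytes each summed to at most 0.991 CPM in a library, the highest being fibroblast markers in a wild-type library.

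Of the 92 hosts, 47 passed the filter on low counts, 26 snoRNA hosts and 21 microRNA hosts. The other 45 were 28 listed at 0 in all 6 libraries (2 snoRNA hosts and 26 microRNA hosts) and 17 with at most 13 counts in a library. MIR193BHG was the only tested host that had 10 or more counts in every library of 1 group alone, the wild-type group. The 5 snoRNA hosts that missed the filter were SNHG14, SNHG18, SNHG27, SNHG28 and SNHG31.

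Of the 26 tested snoRNA hosts 7 rose in the knockout libraries and 0 fell, at an adjusted p under 0.05. Those that rose were SNHG12, SNHG19, SNHG15, ZFAS1, SNHG1, SNHG17 and SNHG6. Of the 21 tested microRNA hosts, MIR100HG and MIR22HG were higher and MIR4435-2HG was lower. Together 10 of 47 hosts were called, 21.3%, beside 13.5% of all 14409 genes tested; 9 were higher, where 6.36% of all genes were, and 1 was lower, where 7.18% were. In these bulk libraries a lower level per cell and fewer expressing cells cannot be told apart.

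Most changes were small. The called rises ran from 1.11-fold for SNHG6 to 1.38-fold for SNHG12. The log2 fold change was above 0 in 22 of 26 snoRNA hosts, with a median of 0.15, and in 11 of 21 microRNA hosts, with a median of 0.0089. Over all tested genes 50.1% were above 0 and the median was 0.0007. All 3 knockout libraries lay above all 3 wild-type libraries for 15 snoRNA hosts and 3 microRNA hosts (15.4% of all genes did so), and below them for 0 and 2 (15.9% of all genes). At an unadjusted p under 0.05 there were 12 snoRNA hosts, of which SNHG26 was the lone one below 0, and 5 microRNA hosts, beside 28.0% of all genes.

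**Figure D1:**
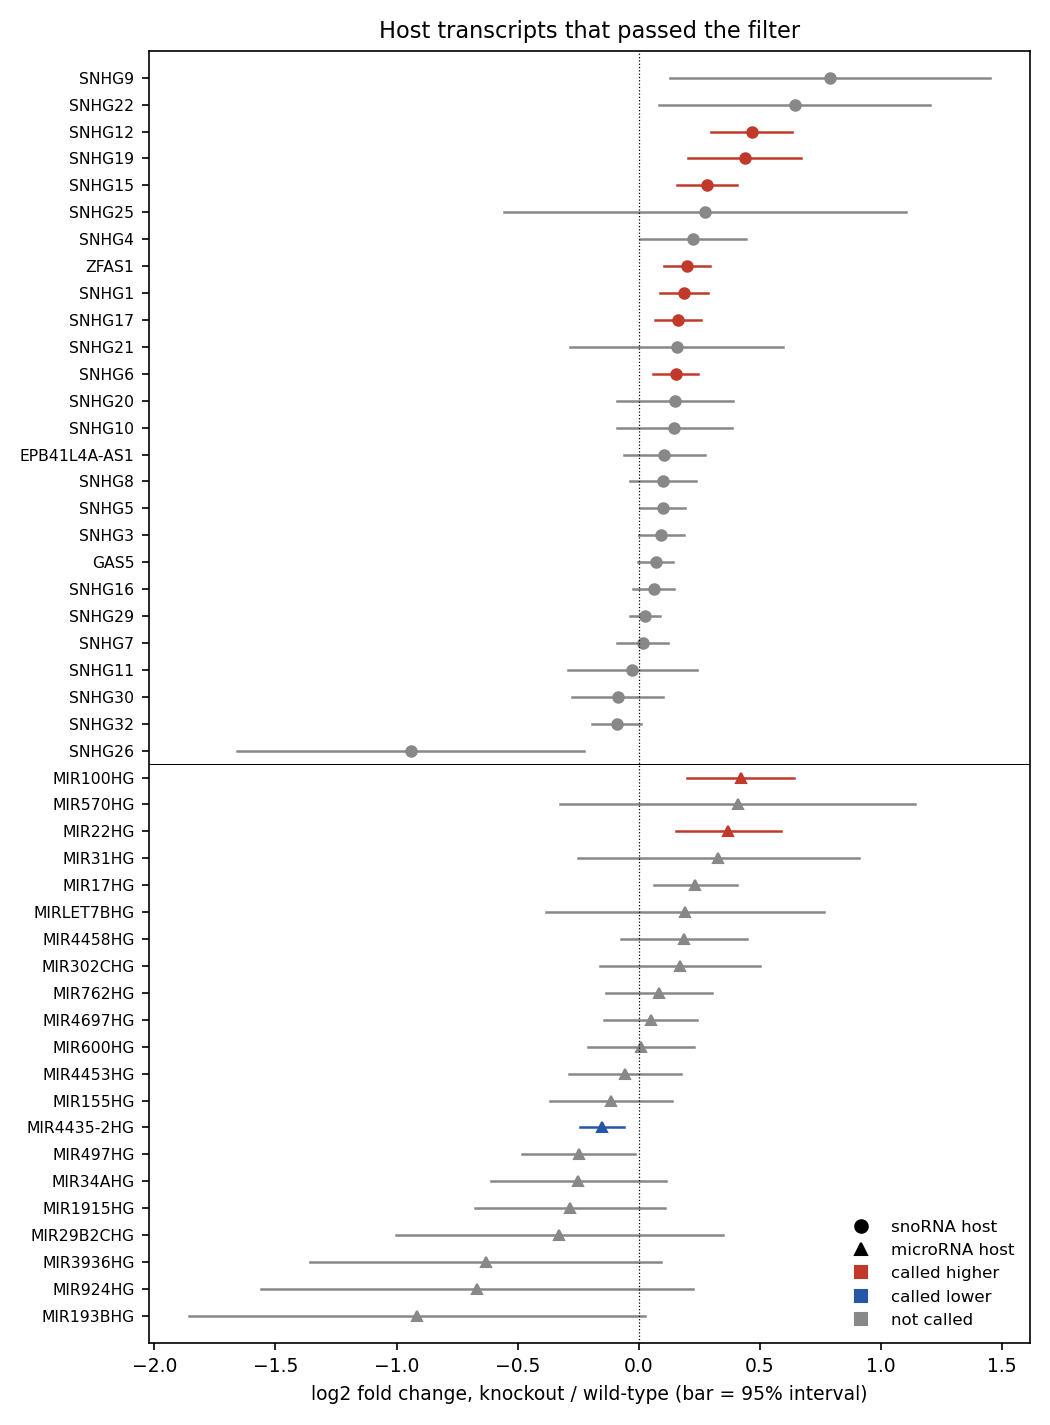
The log2 fold change (knockout over wild-type, x axis) of each of the 47 tested hosts with its 95% interval as a bar, snoRNA hosts above the line as circles and microRNA hosts below it as triangles. Red marks the 9 hosts called higher and blue MIR4435-2HG, the one called lower; the widest bars belong to hosts of low level, such as SNHG9, SNHG26 and MIR193BHG.

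Calls were more frequent among hosts of higher level. Among the 22 hosts with a mean of at least 10 CPM, 8 were higher and 1 lower. Of all genes at that level 16.1% were called in either direction and 8.61% were higher. Among the 25 hosts under 10 CPM, 1 was higher (MIR100HG) and 0 lower. Of all genes under 10 CPM 7.5% were called in either direction and 0.967% were higher. The median standard error of the log2 fold change was 0.050 in the first set and 0.19 in the second, so a rise of the size seen in ZFAS1 was not detectable at the depth of most hosts in the second.

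Summed over all 31 snoRNA hosts, tested or not, the level was 1982, 1972 and 1975 CPM in the wild-type libraries. It was 2061, 2086 and 2117 CPM in the knockout libraries, so the knockout libraries were higher in all 3 cases. SNHG29 made up the largest share of this sum; without it the sums were 1299, 1291 and 1289 CPM against 1371, 1391 and 1417 CPM. All 61 microRNA hosts summed to 217, 222 and 224.6 CPM in the wild-type libraries. The sums were 215, 215 and 220 CPM in the knockout libraries, and the groups overlapped. MIR4435-2HG, the only host called lower, made up the largest share of this sum. It held 113, 110 and 117 CPM in the wild-type libraries and 101, 101 and 104 CPM in the knockout libraries. Its fall lowers the knockout sums, so the overlap does not show that the other microRNA hosts were level. These sums are a description and were not tested.

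SNHG12 showed the lowest p-value of the 47. It spans chr1:28578538-28583132 on the minus strand (hg38, GENCODE 29) and holds SNORA16A, SNORA44, SNORA61 and SNORD99. Wild-type libraries 1 to 3 held 15.7, 17.9 and 14.7 CPM of it, and knockout libraries 1 to 3 held 22.3, 22.0 and 22.3 CPM. The knockout libraries were nearly equal to each other and all above the wild-type range. This gave a log2 fold change of 0.47 (SE 0.080, adjusted p = 0.000353, edgeR's quasi-likelihood test with Benjamini-Hochberg adjustment, as for all adjusted p-values here), a level of 138% of wild type with a 95% interval of 123% to 155%.

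SNHG15, at chr7:44983023-44986961 on the minus strand, holds the H/ACA snoRNA SNORA9. It stood at 33.0, 34.1 and 34.2 CPM in the wild-type libraries and at 39.3, 40.9 and 42.9 CPM in the knockout libraries, again without overlap. Its log2 fold change was 0.28 (SE 0.060, adjusted p = 0.00254), or 122% of wild type (95% interval 112% to 132%). SNHG12 and SNHG15 were the 2 hosts that were called in each of the 16 alternative analyses, every single library left out included.

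ZFAS1, at chr20:49278178-49295738 on the plus strand, runs antisense to the start of ZNFX1 and holds the C/D box snoRNAs SNORD12, SNORD12B and SNORD12C. It was at 124, 113 and 112 CPM in the wild-type libraries and at 132, 133 and 138 CPM in the knockout libraries. Wild-type library 1 lay nearest the knockout range. ZFAS1 rose by 0.20 on the log2 scale (SE 0.046, adjusted p = 0.00511); without wild-type library 2 it was 0.18 and no longer passed (adjusted p = 0.0507).

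SNHG1, at chr11:62851988-62855914 on the minus strand, is a dense host: SNORD22 and SNORD25 to SNORD31 lie within it. The wild-type libraries held 85.8, 89.5 and 83.7 CPM and the knockout libraries 92.8, 100.3 and 102 CPM. Knockout library 1 was the one closest to the wild-type values. Its rise of 0.19 in log2 (SE 0.048, adjusted p = 0.0121) was 0.17 without knockout library 2 (adjusted p = 0.0877) and 0.16 without knockout library 3 (adjusted p = 0.0847).

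SNHG17 and SNHG6 gave narrow groups and small rises. SNHG17, at chr20:38420588-38435353 on the minus strand, carries the SNORA71 family of H/ACA snoRNAs and was at 75.9, 77.1 and 80.1 CPM in wild-type libraries against 86.9, 87.3 and 86.4 CPM in knockout libraries. Its log2 fold change was 0.16 (SE 0.046, adjusted p = 0.0218). It did not pass without wild-type library 2 (adjusted p = 0.0934) or without knockout library 1, 2 or 3 (adjusted p = 0.0860, 0.111 and 0.0670), with values of 0.15 to 0.17. SNHG6, the host of SNORD87 on chromosome 8, was at 76.3, 78.8 and 77.2 CPM in wild-type libraries against 85.4, 87.0 and 85.6 CPM in knockout libraries, a log2 fold change of 0.15 (SE 0.046, adjusted p = 0.0293). It passed the threshold by the least of the 10 calls: it was lost with scaling by library size alone (0.13, adjusted p = 0.0559) and without each library except wild-type library 3 (0.14 to 0.16, adjusted p from 0.0524 without wild-type library 1 to 0.148 without knockout library 2).

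SNHG19 was the shortest called host, with a longest transcript of 342 bp at chr16:2154797-2155358 on the minus strand, around the C/D box snoRNA SNORD60. It was low, at 9.66, 7.95 and 9.13 CPM in wild-type libraries and 10.1, 12.4 and 13.7 CPM in knockout libraries. The lowest knockout and highest wild-type libraries were close. SNHG19 rose by a log2 value of 0.44 (SE 0.11, adjusted p = 0.0115); it was 0.36 without wild-type library 2 (adjusted p = 0.0879), 0.41 without knockout library 2 (adjusted p = 0.0546) and 0.34 without knockout library 3 (adjusted p = 0.0957).

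**Figure D2:**
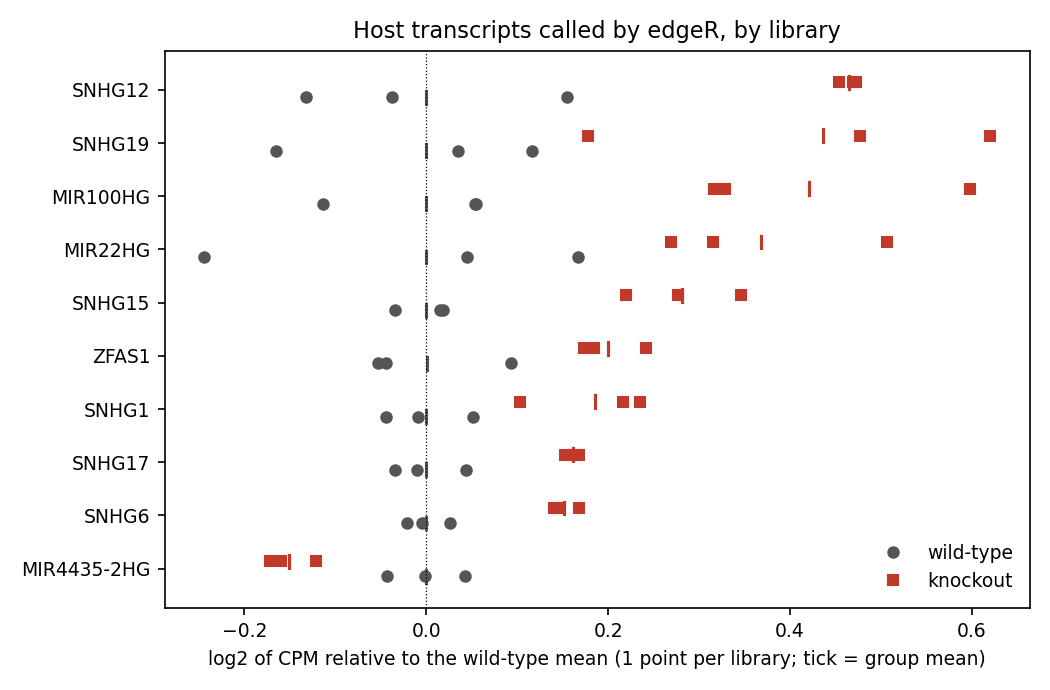
Each library's level of the 10 called hosts, as log2 of CPM relative to the wild-type mean (x axis), with wild-type libraries as circles, knockout libraries as squares and each group's mean as a tick. The squares lie to the right of the circles for the 9 hosts that rose and to the left for MIR4435-2HG; SNHG19, MIR100HG and MIR22HG have the widest spread between libraries.

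Of the 5 snoRNA hosts with the highest mean CPM, ZFAS1 alone was called. SNHG29, listed as LRRC75A-AS1 in GENCODE 29 and host of SNORD49A, SNORD49B and SNORD65, was at 683, 681 and 686 CPM in wild-type libraries against 689.9, 695 and 700.2 CPM in knockout libraries. Although the groups did not overlap, the log2 fold change was 0.025 (SE 0.031, adjusted p = 0.649), and the 95% interval of the ratio ran from 97.4% to 106%. GAS5, named for its rise in growth-arrested cells and host of SNORD44, SNORD47 and SNORD74 to SNORD81, was at 268, 261 and 265 CPM against 282, 274.8 and 276 CPM. Its log2 fold change was 0.07 (SE 0.035, adjusted p = 0.197), with a ratio of 99.8% to 110%. SNHG5, host of SNORD50A and SNORD50B, was at 161, 155 and 145 CPM against 157, 164 and 172 CPM, and the groups overlapped (0.10, SE 0.045, adjusted p = 0.162). SNHG16, host of the SNORD1 family, was at 123, 121 and 123 CPM against 125, 129 and 128 CPM (0.06, SE 0.041, adjusted p = 0.365). For SNHG29 and SNHG16 the upper ends of the intervals, 106% and 111%, lay below the SNHG15 ratio of 122%; a difference between hosts was not itself tested.

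Levels of different hosts can be set side by side only per length. On wild-type CPM per kb of the longest annotated transcript, SNHG29 was first at 411, followed by GAS5 at 156, SNHG5 at 149, SNHG6 at 119.5, ZFAS1 at 108.5 and SNHG32 at 78.5. After a step down came SNHG8 at 44.1, SNHG17 at 36.3, SNHG3 at 34.5, SNHG16 at 33.9, MIR4435-2HG at 31.8 and SNHG1 at 31.2. MIR4435-2HG was thus the one microRNA host among the 12 highest. On this scale the wild-type libraries of GAS5 and SNHG5 overlapped, as did those of SNHG3 and SNHG16 and those of MIR4435-2HG and SNHG1, so the order within these pairs is not settled. The longest annotated transcript stands here for all isoforms.

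The remaining 15 snoRNA hosts had log2 fold changes between -0.94 and 0.79. The extremes were hosts of low level. SNHG26, host of SNORD93, was at 0.699, 1.71 and 1.35 CPM against 0.609, 0.497 and 0.841 CPM, with overlap (-0.94, SE 0.35, adjusted p = 0.0723); it was called lower with no filter beyond 1 count (-0.94, adjusted p = 0.0397), after a correction for GC content (-1.01, adjusted p = 0.0336) and without wild-type library 1 (-1.23, adjusted p = 0.0118). SNHG9, host of SNORA78, was at 0.577, 0.856 and 0.541 CPM against 1.16, 0.902 and 1.35 CPM (0.79, SE 0.32, adjusted p = 0.104). SNHG22 was at 1.15, 0.825 and 0.931 CPM against 1.248, 1.77 and 1.53 CPM (0.64, SE 0.27, adjusted p = 0.120). The last 2 did not overlap between groups, yet their ratios had 95% intervals of 109% to 273% and 106% to 230%.

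Pyrimidine runs at the start were looked for in RefSeq promoter sequences (GRCh38.p14), because this feature is a hallmark of the family. Of the 47 tested hosts 41 had an entry. The called hosts SNHG15 and SNHG6 had none and are in no count by promoter. The pattern searched was a C at the annotated start followed by 4 bases that are each C or T, on the transcribed strand only. It was found at 4.07% of all 35116 promoters, at 6 of 22 snoRNA hosts (27.3%) and at 1 of 19 microRNA hosts, MIR762HG (5.26%). The first share is of promoters, while hosts were counted as genes with the pattern at any start. MIR100HG had 6 starts, so the shares are not of like units. The windows shown hold 25 bases before and 25 bases from the start on, 5′ to 3′ on the transcribed strand, with the run of pyrimidines from the start in capitals. The first 3 are called hosts with the pattern, the next 3 are uncalled hosts with it, and the last 2 are called hosts without it.
SNHG12 (chr1:28581849-28581898, minus): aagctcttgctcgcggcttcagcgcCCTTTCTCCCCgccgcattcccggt
SNHG19 (chr16:2155334-2155383, minus): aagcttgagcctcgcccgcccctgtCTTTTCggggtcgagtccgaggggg
ZFAS1 (chr20:49278617-49278666, plus): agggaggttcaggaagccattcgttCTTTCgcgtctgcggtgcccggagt
SNHG5 (chr6:85678709-85678758, minus): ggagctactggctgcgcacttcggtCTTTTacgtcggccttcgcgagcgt
SNHG4 (chr5:139274076-139274125, plus): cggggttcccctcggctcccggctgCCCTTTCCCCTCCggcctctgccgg
SNHG32 (chr6:31834891-31834940, plus): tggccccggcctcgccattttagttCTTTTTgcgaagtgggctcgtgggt
SNHG1 (chr11:62855861-62855910, minus): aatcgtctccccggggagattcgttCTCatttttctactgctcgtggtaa
SNHG17 (chr20:38435304-38435353, minus): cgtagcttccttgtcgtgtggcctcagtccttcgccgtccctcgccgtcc
The runs were 11 bases long in SNHG12 and 13 in SNHG4, and 5 or 6 in the other 4 hosts that had the pattern. SNHG1 had a C and a run of 3. Of the 6 snoRNA hosts with the pattern 3 were called higher, with a median log2 fold change of 0.21. Of the 16 without it 2 were, with a median of 0.10. Over all tested genes 6.36% were called higher and the median was 0.0007. The sets are small, and a difference between them was not tested. Among those with the pattern SNHG32 stood below 0, at -0.09 (SE 0.049, adjusted p = 0.225), and SNHG4 was at 0.22 (SE 0.11, adjusted p = 0.166). The letters CACGTG are a palindrome and so the same on both strands. They were in the 300 bases of 2 of the 22 snoRNA hosts, SNHG7 and SNHG30 (9.09%), and of 0 of the 19 microRNA hosts. Of all promoters 7.26% held them, and hosts were again counted as genes at any start. A match of letters describes the sequence, and its part in the levels was not tested.

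Among microRNA hosts, MIR100HG and MIR22HG rose. MIR100HG spans chr11:122028327-122556721 on the minus strand. Wild-type libraries held 8.51, 8.50 and 7.57 CPM and knockout libraries 10.2, 12.4 and 10.3 CPM. Knockout library 2 was the highest, and the groups were apart. MIR100HG rose by 0.42 in log2 (SE 0.11, adjusted p = 0.0104), or 134% of wild type (95% interval 115% to 156%), and 0.32 without knockout library 2, which no longer passed (adjusted p = 0.105).

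MIR22HG lies at chr17:1711493-1717174 on the minus strand. Its levels were 10.8, 11.7 and 8.80 CPM in wild-type libraries against 13.0, 12.6 and 14.8 CPM in knockout libraries, so the lowest wild-type and the highest knockout library, both numbered 3, stood farthest from the rest. MIR22HG rose by 0.37 in log2 (SE 0.11, adjusted p = 0.0211), with 0.26 without wild-type library 3 (adjusted p = 0.0810) and 0.29 without knockout library 3 (adjusted p = 0.127).

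MIR4435-2HG was the only tested host called lower, and per length the microRNA host of the highest level. It covers chr2:111036776-111523376 on the minus strand. The 3 wild-type libraries held 113, 110 and 117 CPM and the knockout libraries 101, 101 and 104 CPM, with no overlap. Its log2 fold change was -0.15 (SE 0.044, adjusted p = 0.0240), or 90.1% of wild type (95% interval 84.6% to 95.9%). It stayed between -0.14 and -0.17 without knockout library 1, 2 or 3, and did not pass in any of these cases (adjusted p = 0.106, 0.120 and 0.0568).

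CYTOR is a near-identical copy of MIR4435-2HG elsewhere on chromosome 2, so reads of the pair can be exchanged and their separate counts are uncertain. CYTOR was at 53.7, 50.6 and 52.1 CPM in wild-type libraries against 45.3, 42.8 and 45.0 CPM in knockout libraries (-0.23, SE 0.055, adjusted p = 0.00648). With the counts of both added together, which does not depend on how the reads were divided between them, the log2 fold change was -0.18 (adjusted p = 0.00502).

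MIR17HG, the third of the microRNA hosts to stand higher in every knockout library, was at 12.7, 13.9 and 14.1 CPM in wild-type libraries against 16.7, 15.7 and 15.5 CPM in knockout libraries. Its log2 fold change of 0.23 (SE 0.084) did not pass (adjusted p = 0.0654), and did without wild-type library 3 (0.26, adjusted p = 0.0485). MIR4697HG was at 10.4, 11.2 and 11.7 CPM against 11.1, 11.5 and 11.9 CPM, and MIR762HG at 9.81, 9.54 and 12.1 CPM against 10.3, 12.2 and 10.8 CPM. Both overlapped, with log2 fold changes of 0.05 (SE 0.093) and 0.08 (SE 0.11). The other 15 uncalled microRNA hosts, all under 10 CPM, ran from -0.91 for MIR193BHG to 0.41 for MIR570HG. Among them MIR497HG, host of miR-195 and miR-497, was lower in every knockout library (7.29, 8.25 and 8.74 CPM against 6.85, 6.37 and 7.21 CPM; -0.25, SE 0.11, adjusted p = 0.154). MIR34AHG, the host of the p53-induced miR-34a, was at -0.25 (SE 0.17, adjusted p = 0.377) and MIR155HG at -0.11 (SE 0.12, adjusted p = 0.595).

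Neighbouring genes at the same loci were read next, because the counting program and its strand setting are not given, and without strand the reads of a host and of a gene opposite it cannot be told apart. In GENCODE 29, 24 of the 47 tested hosts shared exon positions with another gene of the tables. Of the 10 called hosts, 5 did (MIR100HG with BLID, MIR4435-2HG with BCL2L11, SNHG12 with TRNAU1AP, SNHG6 with MCMDC2, and ZFAS1 with ZNFX1), and MIR22HG, SNHG1, SNHG15, SNHG17 and SNHG19 did not. Around the called hosts 7 genes that overlap a host or start within 5 kb of it on the other strand were tested, and 0 were called, beside 13.5% of all genes.

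The start of SNHG1 lies 188 bp from that of SLC3A2, which encodes the heavy chain of amino acid transporters. SLC3A2 was at 132 ± 4.72 CPM in wild-type libraries against 142 ± 5.89 CPM in knockout libraries (SD, n = 3 each; log2 fold change 0.11, SE 0.044, adjusted p = 0.118). ZNFX1, which starts 248 bp from ZFAS1, was at 0.05 (SE 0.041), WDR81, 651 bp from MIR22HG, at 0.05 (SE 0.061) and TRAF7, 340 bp from SNHG19, at -0.11 (SE 0.044, adjusted p = 0.0904). TRNAU1AP, which shares exon positions with SNHG12 on the opposite strand, was at -0.13 (SE 0.085) against 0.47 for SNHG12, and its 95% interval ended at 0.04 where that of SNHG12 began at 0.30. Among the 4 pairs that share exon positions and were both tested, no partner of a called host passed the test.

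**Figure D3:**
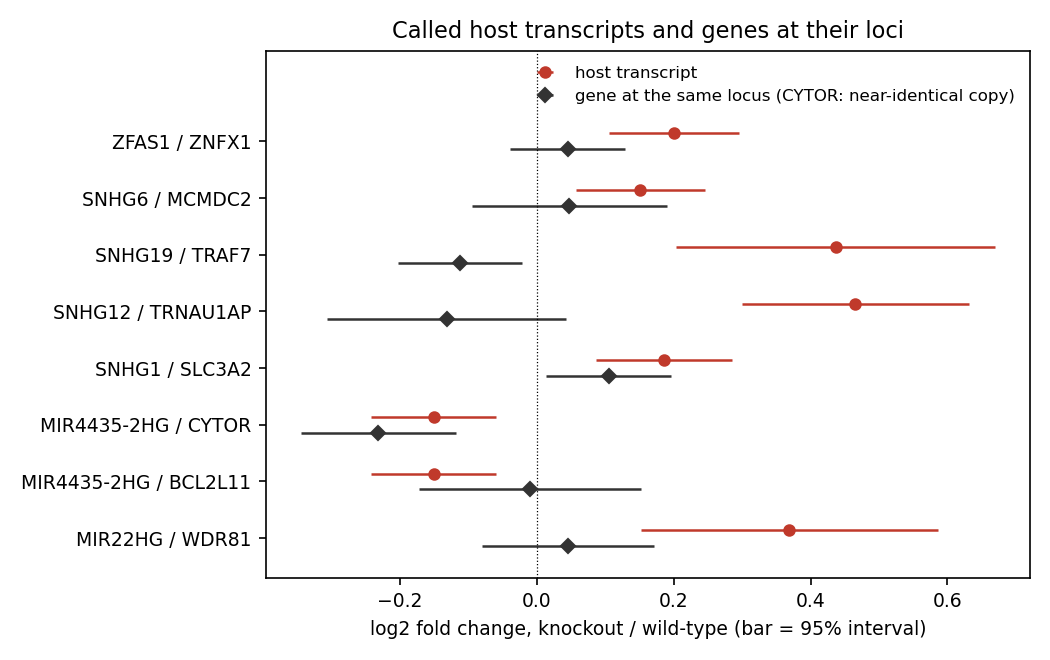
Log2 fold change (knockout over wild-type, x axis) with its 95% interval for called hosts (red circles) and the tested gene at the same locus (black diamonds), with CYTOR as the near-identical copy of MIR4435-2HG. The intervals of SNHG12 and SNHG19 lie wholly above those of TRNAU1AP and TRAF7, those of the other neighbouring pairs overlap, and CYTOR lies on the same side of 0 as MIR4435-2HG.

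Most tested partners of uncalled hosts were not called. MATR3 and LARP7 were the only ones called. Of all genes 13.5% were called, so these calls are not read as a trait of such partners. SNHG4 shares exon positions with MATR3, a nuclear matrix and RNA-binding protein gene on the same strand, which rose from 404 ± 29.1 to 450 ± 13.3 CPM (0.16, SE 0.042, adjusted p = 0.0140), while SNHG4 was at 8.58 ± 0.458 and 10.02 ± 0.991 CPM (0.22, not called). LARP7, a 7SK-binding protein gene that shares exon positions with MIR302CHG on the opposite strand, rose from 26.1 ± 2.08 to 30.5 ± 1.57 CPM (0.22, SE 0.071, adjusted p = 0.0377), and MIR302CHG was at 0.17 (SE 0.16). SNHG3 and RCC1 start 37 bp apart on the same strand, with values of 0.09 (SE 0.045) and -0.02 (SE 0.039).

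SnoRNA symbols are also listed in the tables, with counts of their own. RefSeq places 64 snoRNAs within tested hosts, 61 are in the tables, and 42 of them, in 17 hosts, passed the filter. Symbols that begin with SCARNA (small Cajal body RNAs) were counted as snoRNAs: SCARNA13, SCARNA15, SCARNA16 and SCARNA17. Of these SCARNA13 (-0.68) and SCARNA16 (0.51) were tested and not called. Selection of polyadenylated RNA does not retain mature snoRNAs as a class, and how reads shared by a snoRNA and its host were assigned is not given, so these values are not levels of mature snoRNAs. Of the 42, 2 were higher and 0 lower, with a median log2 fold change of 0.17, where 13.5% of all genes were called. The sign was that of the host for 34. These are not separate measurements, since a snoRNA and its host may share reads and several snoRNAs lie in the same host. SNORA61, within SNHG12, was at 2.55, 2.63 and 2.22 CPM in wild-type libraries against 3.62, 3.39 and 3.82 CPM in knockout libraries (0.55, SE 0.17, adjusted p = 0.0306). SNORA73A, within the uncalled SNHG3, was at 0.577, 0.733 and 1.05 CPM against 1.49, 1.55 and 1.29 CPM (0.87, SE 0.29, adjusted p = 0.0492).

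Both called snoRNAs are of the H/ACA class. They are shown with C/D box snoRNAs of 3 other called hosts, so that the classes can be seen. Sequences are from the GENCODE 29 transcripts on GRCh38, 5′ to 3′. Capitals mark the ACA box 3 bases from the 3′ end in H/ACA snoRNAs, and the C box TGATGA and the D box CTGA in C/D box snoRNAs.
SNORA61 in SNHG12 (chr1:28579764-28579893, minus): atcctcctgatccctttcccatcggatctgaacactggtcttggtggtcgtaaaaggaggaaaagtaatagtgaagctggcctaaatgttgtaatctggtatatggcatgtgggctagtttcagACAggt
SNORA73A in SNHG3 (chr1:28507366-28507571, plus): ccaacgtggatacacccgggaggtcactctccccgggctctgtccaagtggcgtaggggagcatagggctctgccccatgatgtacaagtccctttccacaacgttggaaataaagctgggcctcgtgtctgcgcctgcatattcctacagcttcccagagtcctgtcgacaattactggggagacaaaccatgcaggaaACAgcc
SNORD60 in SNHG19 (chr16:2155023-2155105, minus): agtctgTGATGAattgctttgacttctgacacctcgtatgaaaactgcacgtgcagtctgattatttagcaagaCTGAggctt
SNORD12 in ZFAS1 (chr20:49280683-49280772, plus): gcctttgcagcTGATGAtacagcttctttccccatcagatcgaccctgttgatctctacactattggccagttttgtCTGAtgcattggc
SNORD27 in SNHG1 (chr11:62855012-62855083, minus): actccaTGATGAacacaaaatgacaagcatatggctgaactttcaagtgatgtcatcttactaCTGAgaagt
The letters TGATGA in the first 20 bases together with CTGA in the last 15 were in 66.5% of 278 annotated SNORD transcripts and in 0 of 147 SNORA transcripts, searched on the transcribed strand. The 3 C/D box snoRNAs shown had log2 fold changes of 0.40 (SNORD60), 0.15 (SNORD12) and 0.21 (SNORD27), none of them called, and all were on the side of their host.

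The snoRNAs of GAS5 had their own spread. Of 10 tested, 7 were above 0; the most counted, SNORD77, was at 62.3, 60.02 and 62.8 CPM in wild-type libraries against 65.6, 59.8 and 61.9 CPM in knockout libraries (0.02, SE 0.052), and SNORD44, at 13.8 and 16.2 CPM on average, was nearest the threshold (0.23, SE 0.084, adjusted p = 0.0666). SNORD49B in SNHG29 was at 61.8 ± 2.92 and 63.2 ± 1.92 CPM (0.03, SE 0.052). Of 40 microRNA hairpins within tested hosts, all in the tables, 3 passed the filter and 0 were called: MIR22 at -0.18 (SE 0.47), MIR367 at 0.62 (SE 0.44) and MIR762 at 0.21 (SE 0.43), with group means of 0.284 to 0.468 CPM.

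**Figure D4:**
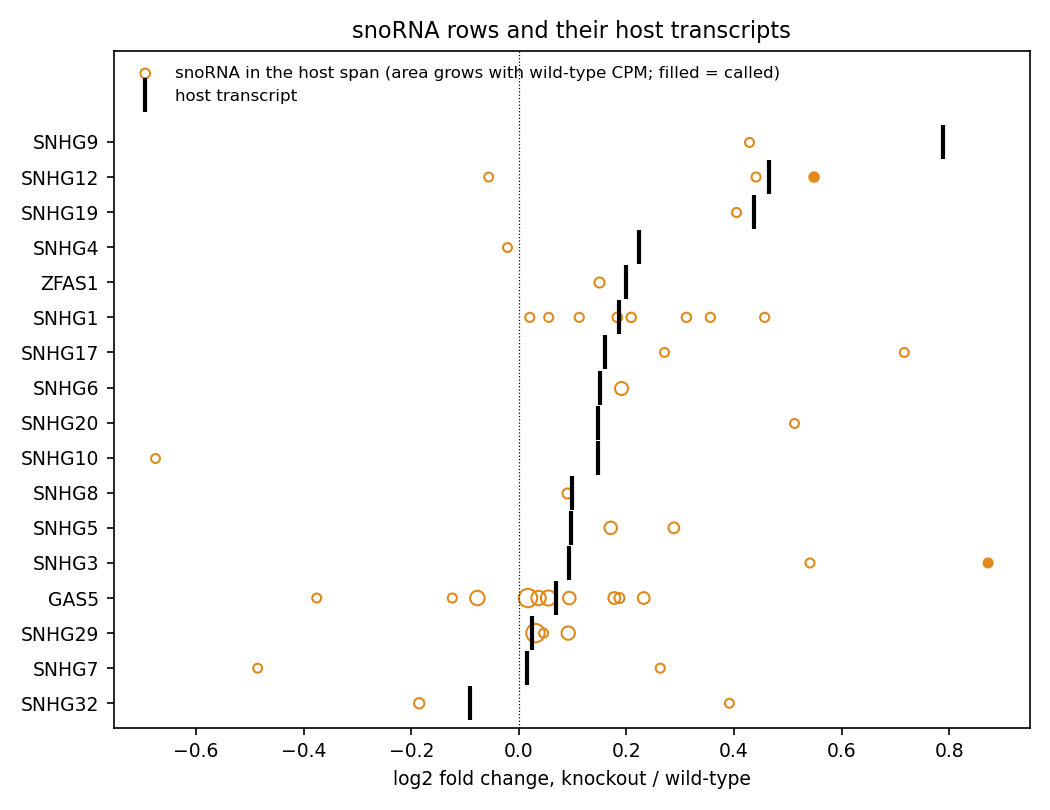
Log2 fold change (knockout over wild-type, x axis) of the 42 tested snoRNA symbols (circles, larger with higher wild-type CPM) beside that of their host (black tick), with hosts sorted by their own value. The 2 filled circles are SNORA61 in SNHG12 and SNORA73A in SNHG3, the called ones; the circles farthest from their host are small.

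The 5 surrounding gene lists were read beside the hosts, each described by its counts and not tested as a list. The snoRNP core and assembly genes encode proteins that bind snoRNAs or help to build their particles. Of 18 tested, 5 rose and 0 fell, with a median of 0.09. NOP58, a core protein of C/D box particles, rose from 67.1 ± 4.59 to 80.7 ± 1.63 CPM (0.27, adjusted p = 0.00132). Its paralog NOP56 rose by 0.21 (adjusted p = 0.000255), NAF1, an assembly factor of H/ACA particles, by 0.21 (adjusted p = 0.0308), and DKC1, the pseudouridine synthase, by 0.17 (adjusted p = 0.00748). FBL, the C/D box methyltransferase, was listed at 0 in all libraries.

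Protein-coding genes that host snoRNAs in their introns, ribosomal protein genes left out, moved up in part. Of 22 tested, 8 rose and 1 fell, with a median of 0.06. HSPA8, a constitutive chaperone and host of the SNORD14 group, rose from 2066 ± 72.1 to 2455 ± 40.2 CPM (0.25, adjusted p = 5.34e-06), RABGGTB, a subunit of the enzyme that prenylates Rab proteins, by 0.24 (adjusted p = 0.00197), IPO7, an import receptor, by 0.18 (adjusted p = 0.00309) and TAF1D, a subunit of the RNA polymerase I factor SL1, by 0.18 (adjusted p = 0.0438). EEF2, the translocase of translation, fell from 4224 ± 231 to 3935 ± 26.0 CPM (-0.10, adjusted p = 0.0389). These lists and the hosts were measured in the same 6 libraries.

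On the microRNA side, 3 of 13 processing and Argonaute genes rose and 1 fell, with a median of 0.11. DICER1 rose from 72.3 ± 3.06 to 82.1 ± 2.97 CPM (0.18, adjusted p = 0.0161), XPO5, which exports the hairpins, by 0.15 (adjusted p = 0.0201) and AGO1 by 0.13 (adjusted p = 0.0337), whereas AGO4 fell from 31.3 ± 0.510 to 25.3 ± 1.39 CPM (-0.30, adjusted p = 0.00304). Protein-coding microRNA hosts went both ways: of 16 tested, 2 rose and 4 fell, with a median of -0.04. SREBF2, the sterol-responsive factor that holds miR-33a, fell from 249 ± 17.1 to 213 ± 0.906 CPM (-0.23, adjusted p = 0.000739). PANK3, a pantothenate kinase that holds miR-103a, rose by 0.19 (adjusted p = 0.00579), SMC4, a condensin subunit that holds miR-15b and miR-16-2, rose by 0.19 with overlapping groups (adjusted p = 0.0471), and EGFL7, host of miR-126, was lower by a log2 value of -0.19 (adjusted p = 0.0195).

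Nonsense-mediated decay degrades several spliced hosts. Of 14 tested factors 3 rose and 0 fell, with a median of 0.09: UPF2 from 63.0 ± 6.02 to 73.2 ± 2.75 CPM (0.22, adjusted p = 0.0154), SMG8 by 0.15 (adjusted p = 0.0382) and SMG1, the kinase of UPF1, by 0.14 (adjusted p = 0.0104). All 5 list counts stand beside the 13.5% of all genes called, and no list is shown to differ from other genes.

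The number of calls moved with the libraries used. Without wild-type library 2, 6 of 47 hosts were called (5 higher, 1 lower), 12.8% beside 7.35% of all genes. Without knockout library 2, 4 of 48 tested hosts were called (all higher), 8.33% beside 6.5% of all genes. Without knockout library 3 it was also 4 of 48 (all higher), 8.33% beside 8.24%. In that case the share of hosts was near that of all genes. Across all genes the split of calls moved with the scaling. It was 917 higher and 1034 lower here, 649 and 1229 with library size alone, and 1989 and 1054 after a correction for GC content; the hosts gave 9 and 1, 8 and 1 (beside 13.0% of all genes called), and 13 and 2 (beside 22.0%). With the GC correction SNHG5 (0.12, adjusted p = 0.00730), SNHG3 (0.12, adjusted p = 0.0218), SNHG7 (0.13, adjusted p = 0.0149) and SNHG9 (0.91, adjusted p = 0.0422) were also higher and SNHG26 was lower. SNHG7, which has one of the most GC-rich transcripts of the tested hosts at 65.9%, was at 0.02 (adjusted p = 0.883) without it.

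**Figure D5:**
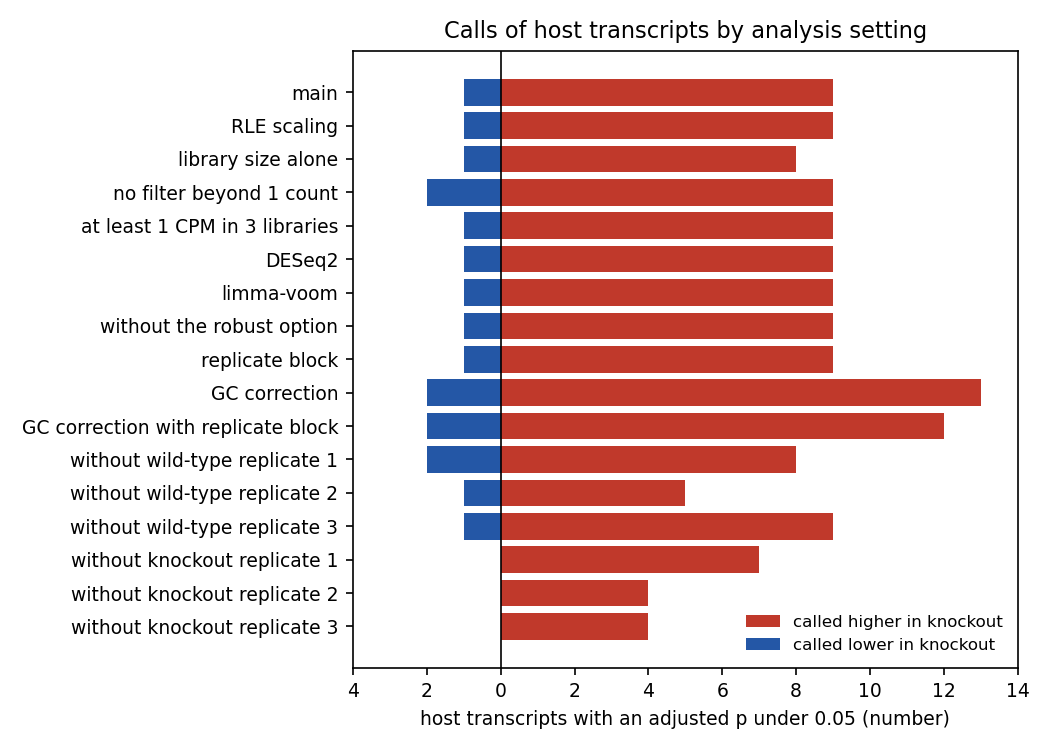
Number of hosts with an adjusted p under 0.05 (x axis, higher in knockout to the right in red, lower to the left in blue) in the analysis reported here and in 16 alternatives. Counts fall to 4 without knockout library 2 or 3 and reach 15 with the GC correction; the bars to the right are longer than those to the left in each case.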

How the data were processed

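RNA-seq was read from 6 libraries of RKO cells. Per the labels' protocols, RNA was taken with TRIzol and libraries were made with a VAHTS Universal V6 kit from polyadenylated RNA and sequenced as paired 150 bp reads. For each library the authors deposited a table of raw counts by gene symbol. Build hg38 and the tools TopHat, edgeR and limma are named in the submitters' processing notes, without versions. The sources used here name no counting program, annotation or strand setting.

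Counts were tested in R 4.3.3 with edgeR 4.0.16 (filterByExpr with a minimum count of 10 and total of 15, TMM, robust quasi-likelihood fit with group as its term, Benjamini-Hochberg over 14409 genes, threshold 0.05). CPM are TMM-scaled, standard errors were computed from each gene's log2 fold change and F value, and intervals are 95%. The code was tested on simulated counts. Positions are from GENCODE 29 (hg38), matched by name, identifier or older symbol for 91 of the 92 hosts; MIR570HG was not matched. Within groups the chi-square per degree of freedom between libraries was 3.16 to 9.71, so each library counted as 1 replicate.

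The members and the gene lists were chosen with earlier results of these data known. Per-library values are given for called hosts and the 5 hosts of each class with the highest mean, and for others singled out after their values were seen (SNHG26, SNHG9, SNHG22, MIR497HG); for each list up to 4 called genes with the largest changes are named, and EEF2 was added as the one fall in its list. Alternatives were RLE scaling, library size alone, no filter, at least 1 CPM in 3 libraries, DESeq2 1.42.0, limma-voom (limma 3.58.1), no robust option, a replicate block, a GC correction (spline with 5 degrees of freedom, 95.9% of genes with a GC value), both together, and each library left out.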

Additional observations from a re-analysis of the deposited data

How the results depend on the processing

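Over the 10 called hosts and all alternatives there were 161 comparisons: 0 changed direction and 22 lost the call, 21 of these by leaving out a library. Over all genes the main count of 1951 became 3043 with the GC correction and 3061 with the GC correction and the replicate block, and 950 to 2531 with 1 library left out: 2531, 1072 and 2046 without wild-type library 1, 2 and 3, and 1094, 950 and 1205 without knockout library 1, 2 and 3. Called hosts ranged from 4 to 10 with 1 library left out, and were 9 to 15 otherwise. The GC-corrected fit covered fewer genes; the cause of its higher count was not tested. Fewer libraries went with fewer calls in most cases but not all.

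Of the 37 uncalled hosts 5 changed sign in some alternative. With 1 library left out, MIR4453HG ranged from -0.162 to 0.0197 (0.0023 without wild-type library 2), MIR600HG from -0.0311 to 0.0404, SNHG11 from -0.1294 to 0.1189, SNHG25 from -0.0098 to 0.6038 and SNHG7 from -0.0249 to 0.0532. With library size alone MIR600HG was -0.0098 and SNHG7 -0.0037. SNHG11 was 0.0366 with the GC correction and 0.0416 with that and the replicate block. The cause was not tested.

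Libraries of both groups carry the numbers 1 to 3, which the labels do not tie to a shared culture or day. Deviations of same-numbered libraries correlated at 0.071, -0.0041 and 0.031 across genes, and not every library correlated best with its own number, so the numbers were not taken as pairs. A replicate block gave 2193 calls over all genes (1080 higher, 1113 lower) and 10 among the hosts (9 higher, 1 lower). Adding MIR4435-2HG to CYTOR was chosen after seeing the data. Depth limits the low hosts: under 10 CPM the median standard error was 0.19, so small rises such as that of ZFAS1 were not detectable in most of them.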
